A study of Arabidopsis thaliana with 21 samples.

Results

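The genes described here are those carried by the mitochondrial genome of Arabidopsis thaliana, taken as every row whose identifier begins with ATMG. The mRNA table held 146 such rows among 33602, and the small RNA tables held 122 among 32420. Of the 146, 37 were protein genes with a known role, 85 were other open reading frames, 21 were transfer RNA genes and 3 were ribosomal RNA genes. The small RNA tables had rows for the same protein genes and open reading frames, and the transfer and ribosomal RNA genes were not analysed there.

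The series compared mutants of the gene AtDXO1 (AT4G17620, written DXO1 below), named in the series title as an enzyme with NAD-cap removing and exonuclease activity. RNA was sequenced in 21 libraries, in groups of 3 replicates. For mRNA, material came from 16-day-old wild-type Col-0, plants labelled dxo1-1 and plants labelled dxo1-2, giving 9 libraries. The 12 small RNA libraries came from 10-day-old Col-0, dxo1-2, dcl4-2 and dxo1-2dcl4-2 plants, where dcl4-2 is a mutation in DICER-LIKE 4 and the last line carries both mutations. The labels give no other allele and no treatment, and do not say whether replicates were grown separately, so every p-value reflects the spread between samples whose source may be technical. The tissue is given as rosette leaves for all samples, while the small RNA extraction protocol speaks of seedlings. In RNA from whole tissue, fewer cells or organelles and less RNA per cell cannot be told apart.

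The mitochondrial genome of a flowering plant encodes a small part of the respiratory chain and of the organelle's own translation machinery, and nuclear genes supply the rest. Its transcripts are made by nuclear-encoded phage-type RNA polymerases and then trimmed, spliced and edited by nuclear-encoded proteins. A poly(A) tail on a plant mitochondrial transcript generally marks it for decay, unlike the tail of a nuclear mRNA. DICER-LIKE enzymes cut double-stranded RNA into small RNAs of set lengths in the nucleus and cytoplasm, with DICER-LIKE 4 making 21-nt products.

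DXO1 itself differed between the mutant labels. In the dxo1-1-labelled libraries it had 192.71, 195.46 and 248.56 FPKM (fragments per kilobase, corrected for sequencing depth), above the range of 10.04 to 11.97 in Col-0, while the dxo1-2 libraries had 5.88 to 7.64. The groups did not overlap. The labels do not say how either allele changes DXO1, and FPKM per gene cannot tell a full transcript from a partial one. Where DXO1 is called raised below, its FPKM is meant. Leaf markers were abundant in all 9 libraries, with the Rubisco small subunit gene RBCS-1A between 16482.8 and 28066.1 FPKM. Of the 3 root markers, the beta-glucosidase gene BGLU23 stood at 292.52 to 490.18 FPKM, TIP2-3 at 0.15 to 4.95 and BHLH83 at 0 to 0.11. Flower markers reached at most 0.43 FPKM and seed markers at most 0.05. Libraries also differed in cytosolic ribosomal RNA: the nuclear row AT3G41768 exceeded 1000 FPKM in Col-0 replicate 2 and in dxo1-2 replicates 2 and 3.

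Mitochondrion-encoded transcripts were scarce in the mRNA libraries. All 146 rows together made up 0.00336% to 0.00867% of the summed FPKM of a library. In 63 rows the value was listed at 0 in all 9 libraries, 83 were above 0 in at least 1 library and 22 were above 0 in all 9. The median of the rows' mean FPKM was 0.05. All 21 transfer RNA rows and the 5S ribosomal RNA row RRN5 were listed at 0, although every cell uses these RNAs, so a 0 in this table is not read as absence.

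Being listed at 0 went with short length. Among rows shorter than 400 bases, 53 of 74 mitochondrial rows (71.6%) were at 0 in all 9 libraries, against 91.7% of 3329 other rows of that length. From 400 bases to under 1000, 10 of 55 (18.2%) were, against 31.1% of the other rows, and of the 17 mitochondrial rows of 1000 bases or more none (0) was, against 16.7%. In each length class a smaller share of the mitochondrial rows than of the other rows was listed at 0. A mean of at least 1 FPKM, the level required for a test, was reached by 13 mitochondrial rows, or 8.90%, against 54.9% of the other rows. The 13 were 4 genes of ATP synthase, 1 each of complex I and complex IV, 2 ribosomal RNA genes and 5 other open reading frames. The other rows above 0 have a level but no test.

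Genes of ATP synthase (complex V), which makes ATP from the proton gradient, were the best measured protein group, with 5 of 6 rows above 0 in all 9 libraries. ATP9 encodes the membrane ring subunit. It had 3.18, 7.11 and 3.95 FPKM in Col-0, 8.94, 8.54 and 8.58 in the dxo1-1-labelled libraries, and 6.26, 6.18 and 8.76 in dxo1-2. All libraries labelled dxo1-1 lay above all Col-0 libraries, while dxo1-2 overlapped Col-0 through Col-0 replicate 2. The means were 4.75 ± 2.08 (SD, n = 3), 8.69 ± 0.220 and 7.07 ± 1.47 FPKM. In limma fits of log2(FPKM + 1) over all 18378 genes tested, with Benjamini-Hochberg adjustment, ATP9 was higher than in Col-0 by log2 0.81 (SE 0.208, adjusted p = 0.0041) in the dxo1-1-labelled libraries, where DXO1 was raised, and by log2 0.53 (SE 0.208, adjusted p = 0.0378) in dxo1-2. On this scale the change of a gene of low level is understated. The first difference passed with any single library left out. The second missed the threshold without Col-0 replicate 1, Col-0 replicate 3 or dxo1-2 replicate 3, with an adjusted p of up to 0.157.

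ORF25, the gene of ATP synthase subunit 4, had 1.44, 1.37 and 1.0 FPKM in Col-0, 1.6, 2.03 and 1.91 in the dxo1-1-labelled libraries and 1.78, 1.86 and 1.83 in dxo1-2. All 6 libraries labelled as mutants lay above the 3 Col-0 libraries. The difference was log2 0.33 (SE 0.120, adjusted p = 0.0268 in limma) for the dxo1-1-labelled libraries, where DXO1 was raised, and log2 0.32 (adjusted p = 0.0316 in limma) for dxo1-2. Single libraries decided both calls. The first missed the threshold without Col-0 replicate 3 or without replicate 2 or 3 labelled dxo1-1 (adjusted p up to 0.105), and the second without Col-0 replicate 3 or any 1 dxo1-2 library (adjusted p up to 0.120).

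ATP1, the gene of the alpha subunit of the catalytic head, had 0.26, 1.16 and 0.67 FPKM in Col-0, 1.2, 1.69 and 1.1 in the dxo1-1-labelled libraries and 0.59, 1.43 and 1.85 in dxo1-2. The groups overlapped, and the differences of log2 0.48 (adjusted p = 0.0924 in limma) and log2 0.43 (adjusted p = 0.137) did not pass. YMF19, the gene of subunit 8, was the 1 tested gene of the group with a lower mean in both mutants, at 1.35, 1.52 and 1.65 FPKM in Col-0, 1.5, 0.83 and 0.22 in the dxo1-1-labelled libraries and 0.95, 1.23 and 0.48 in dxo1-2. Its differences of log2 -0.50 (adjusted p = 0.0824 in limma) and log2 -0.43 (adjusted p = 0.131) did not pass. YMF19 and the ATP6 rows are named to complete the complex and were chosen after their values were seen. ATP6-1 and ATP6-2, copies of the gene of the proton channel subunit, ranged from 0 to 0.5 FPKM and from 0.07 to 0.84 FPKM, with overlapping groups.

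**Figure D1:**
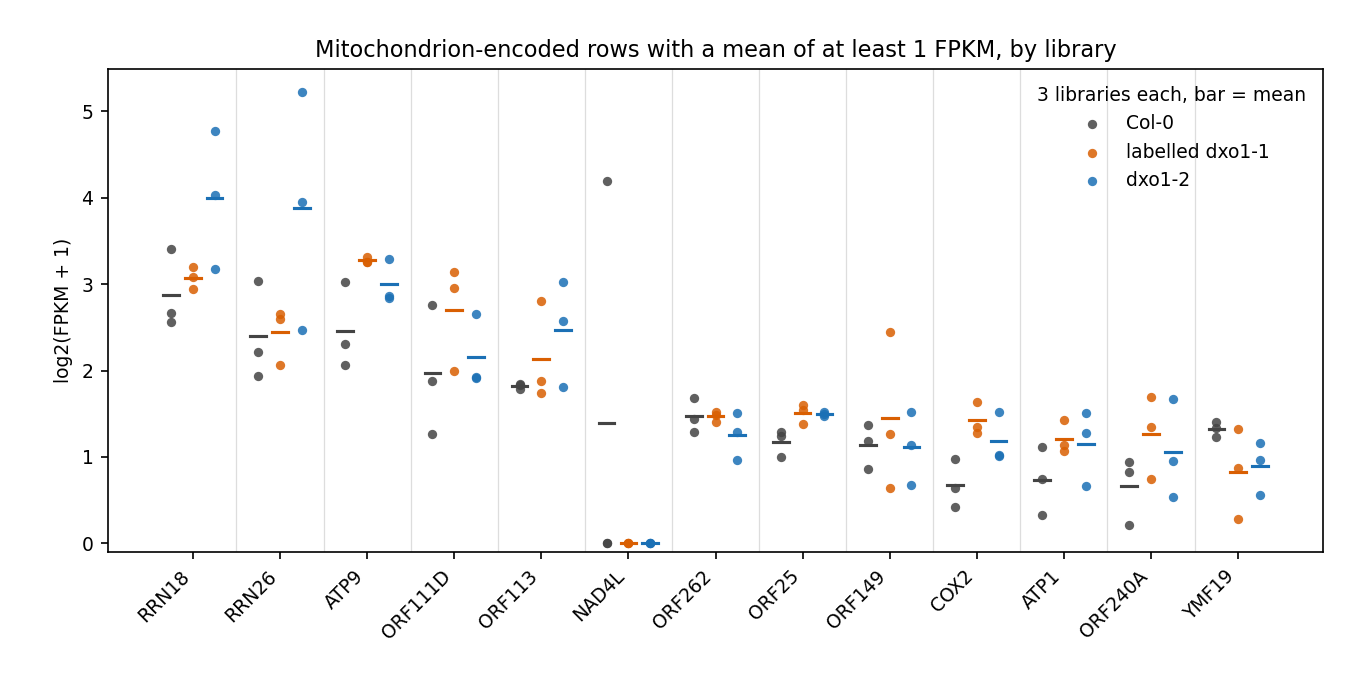
log2(FPKM + 1) of the 13 tested mitochondrion-encoded genes in each of the 9 mRNA libraries (points), with the mean of each group as a bar. The COX2 and ORF25 values of all 6 libraries labelled dxo1-1 or dxo1-2 lie above the Col-0 values, ATP9 does so in the dxo1-1-labelled libraries, and RRN18 and RRN26 are highest in dxo1-2 replicate 2.

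COX2, which encodes the subunit of cytochrome c oxidase (complex IV) that receives electrons from cytochrome c, had 0.34, 0.97 and 0.56 FPKM in Col-0, 2.11, 1.43 and 1.55 in the dxo1-1-labelled libraries and 1.01, 1.87 and 1.03 in dxo1-2. The Col-0 libraries were the 3 lowest. The means were 0.623 ± 0.320 (SD, n = 3), 1.70 ± 0.363 and 1.30 ± 0.491 FPKM. COX2 was higher by log2 0.74 (SE 0.191, adjusted p = 0.0043 in limma) in the dxo1-1-labelled libraries, again with DXO1 raised, with any single library left out as well. In dxo1-2 it was higher by log2 0.50 (SE 0.191, adjusted p = 0.0341 in limma), a call lost without Col-0 replicate 1, Col-0 replicate 3 or dxo1-2 replicate 2 (adjusted p up to 0.141). The other catalytic subunit genes were too low to test. COX1 lay between 0.23 and 0.45 FPKM in Col-0, 0.4 and 0.52 in the dxo1-1-labelled libraries and 0.44 and 0.76 in dxo1-2, and COX3 between 0 and 0.22 FPKM in all 9.

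In counts, 3 of the 13 tested genes were higher in the dxo1-1-labelled libraries (ATP9, COX2 and ORF25) and 0 lower by limma. All 3 had an unadjusted p under 0.05 in limma, in libraries where DXO1 was raised. Over all genes tested, 49.6% were called higher and 26% lower in that contrast. In dxo1-2, 5 of 13 were higher (RRN18, RRN26, ORF25, COX2 and ATP9) and 0 lower, against 51.8% higher and 21.2% lower of all genes. In the mean of both mutants 3 of 13 were higher and 0 lower, beside 52.4% and 24.8% of all genes. The shares of members called higher, 23.1%, 38.5% and 23.1%, were thus below those of the whole table, and both mutants were set against the same 3 Col-0 libraries. Between the mutants none (0) of the 13 passed in limma, against 22.3% higher and 15.7% lower of all genes. RRN18 and RRN26, 2 in all, had unadjusted p-values under 0.05 there. In the mean of both mutants 3 of 4 leaf markers and both tested root markers were also called lower, and the part of tissue makeup in these results was not tested.

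These directions rest on the authors' FPKM scale. The median gene was higher by log2 0.21 in the dxo1-1-labelled libraries and by log2 0.25 in dxo1-2, and the median tested mitochondrial gene by log2 0.32 and 0.39. Centring each library on its own genes shifted the median gene by log2 -0.31 and -0.35, and the share of higher calls among all calls went from 65.6% to 44.1% and from 71.0% to 43.2%. Relative to the centred libraries ATP9 was still higher in those labelled dxo1-1, by log2 0.50 (adjusted p = 0.0365 in limma). The ORF25 difference was then log2 -0.03 in dxo1-2 (adjusted p = 0.810), COX2 had adjusted p = 0.0524 and 0.475, and YMF19 was lower by log2 -0.81 (adjusted p = 0.0132) and -0.78 (adjusted p = 0.0166). ORF262 was also lower on that scale in dxo1-2, by log2 -0.57 (adjusted p = 0.0090). Under centring 1 gene was higher and 1 lower in the dxo1-1-labelled libraries, and 0 higher and 2 lower in dxo1-2. Of all genes 34.4% were then called higher and 43.5% lower in the former, and 32.3% and 42.5% in dxo1-2.

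Complex I, the NADH dehydrogenase that feeds electrons into the chain, has 14 rows here, of which 5 (NAD6, NAD1C, NAD5B, NAD3 and NAD1B) were listed at 0 in all 9 libraries. NAD4L was the 1 member that reached the level for a test, and did so through a single library: it had 17.34 FPKM in Col-0 replicate 2 and 0 in the other 8. Its row is 303 bases long. In that library 5 nuclear or chloroplast rows within 3 bases of that length were above 0, the lowest at 5.4 FPKM and the median at 6.19, so few fragments make a value of this size. The difference was not called (log2 -1.40, adjusted p = 0.165 in limma, for the dxo1-1-labelled libraries). NAD5C, 1 of the separately encoded pieces of the NAD5 subunit gene, had 0.72, 1.0 and 0.94 FPKM in Col-0, 0.65, 0 and 0 in the dxo1-1-labelled libraries, and 0, 0.64 and 0.32 in dxo1-2. The Col-0 libraries were the 3 highest. NAD9, a subunit of the peripheral arm, ranged from 0 to 0.57 FPKM in Col-0 and from 0.25 to 0.9 in the other libraries, with overlap.

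The remaining named protein genes stayed under the level for a test. Complex III passes electrons from ubiquinol to cytochrome c, and its 1 mitochondrial gene COB lay between 0 and 0.16 FPKM. Cytochrome c maturation genes, which make the machinery that attaches haem, were led by CCB206 with 0.71, 0.23 and 1.38 FPKM in Col-0, 0.44, 0.48 and 0.79 in the dxo1-1-labelled libraries and 1.69, 0.88 and 0.22 in dxo1-2. CCB203 reached at most 0.69 FPKM and CCB256 at most 0.11. The groups overlapped in all of these genes. Of the 6 ribosomal protein genes none was above 0 in all 9 libraries. Their highest row by mean, RPSL2, had 1.18, 0.72 and 0.38 FPKM in Col-0, 1.48, 0.83 and 1.3 in the dxo1-1-labelled libraries, and 0, 0.7 and 0 in dxo1-2. RPS7 ranged from 0 to 1.5 FPKM and RPL16 from 0 to 1.43, and neither had groups that stood apart. MATR, the intron-borne maturase that helps splice mitochondrial group II introns, lay between 0 and 0.14 FPKM in Col-0, 0.1 and 0.17 in the dxo1-1-labelled libraries and 0.18 and 0.34 in dxo1-2, whose libraries were the 3 highest. ORFX, the gene of a protein translocation component, lay between 0 and 0.22 FPKM.

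Of the 85 other open reading frames, 36 were listed at 0 in all 9 libraries, 11 were above 0 in all 9 and 5 were tested, none of which passed in the 4 contrasts. ORF111D, the highest of them, had 1.4, 5.79 and 2.68 FPKM in Col-0, 3.0, 6.75 and 7.81 in the dxo1-1-labelled libraries, and 2.76, 2.79 and 5.28 in dxo1-2. Col-0 replicate 2 lay within the range of the mutants. ORF113 had 2.55, 2.59 and 2.44 FPKM in Col-0, 2.68, 5.97 and 2.33 in the dxo1-1-labelled libraries and 4.94, 2.5 and 7.13 in dxo1-2. It was steady in Col-0 and scattered in both mutants, with log2 0.65 in dxo1-2 (adjusted p = 0.0800 in limma). ORF262 stayed between 0.95 and 2.21 FPKM in all libraries.

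The mitochondrial ribosomal RNAs, which form the core of the organelle's ribosome, differed most in dxo1-2. RRN18, the small subunit RNA, had 4.93, 9.61 and 5.33 FPKM in Col-0, 6.69, 7.45 and 8.19 in the dxo1-1-labelled libraries and 8.04, 26.41 and 15.41 in dxo1-2. RRN26, the large subunit RNA, had 2.84, 7.22 and 3.65 FPKM in Col-0, 3.2, 5.32 and 5.05 in the dxo1-1-labelled libraries and 4.55, 36.52 and 14.41 in dxo1-2. Replicates 2 and 3 of dxo1-2 were above every other library, while replicate 1 lay within the Col-0 range. The means of RRN18 were 6.62 ± 2.59 (SD, n = 3), 7.44 ± 0.750 and 16.6 ± 9.24 FPKM, and those of RRN26 4.57 ± 2.33, 4.52 ± 1.15 and 18.5 ± 16.4. In dxo1-2 RRN18 was higher than in Col-0 by log2 1.12 (SE 0.336, adjusted p = 0.0109 in limma) and RRN26 by log2 1.48 (SE 0.545, adjusted p = 0.0294). For the dxo1-1-labelled libraries the differences were log2 0.19 (adjusted p = 0.613 in limma) and log2 0.04 (adjusted p = 0.947). The RRN26 call was lost without Col-0 replicate 1 or 3 or dxo1-2 replicate 2 or 3 (adjusted p up to 0.109), and the RRN18 call with none of the 9 left out (adjusted p up to 0.0452).

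Ribosomal RNA of the other compartments moved with these values. The nuclear row AT3G41768 had 556.55, 1269.21 and 779.03 FPKM in Col-0, 399.45, 618.39 and 623.19 in the dxo1-1-labelled libraries and 744.66, 3731.76 and 2044.33 in dxo1-2. Chloroplast ribosomal RNA summed to 203.56, 937.55 and 448.34 FPKM, to 119.5, 356.19 and 288.23 and to 409.34, 3011.32 and 1627.68 in the same order. Within Col-0 and within dxo1-2, the library with the highest mitochondrial ribosomal RNA also had the highest nuclear and chloroplast ribosomal RNA. Without the 3 libraries over 1000 FPKM of the nuclear row, a choice made after the values were seen, RRN26 had log2 0.39 (adjusted p = 0.240 in limma) and RRN18 log2 0.56 (adjusted p = 0.0116) in dxo1-2, which then had 1 library, assumed to vary like the other groups. There ATP9 kept log2 0.67 (adjusted p = 0.0048), while COX2 (log2 0.48, adjusted p = 0.0891) and ORF25 (log2 0.33, adjusted p = 0.168) did not pass. How the RNA was selected before sequencing was not given in the sources used, and the part of ribosomal RNA carry-over in these values was not tested.

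**Figure D2:**
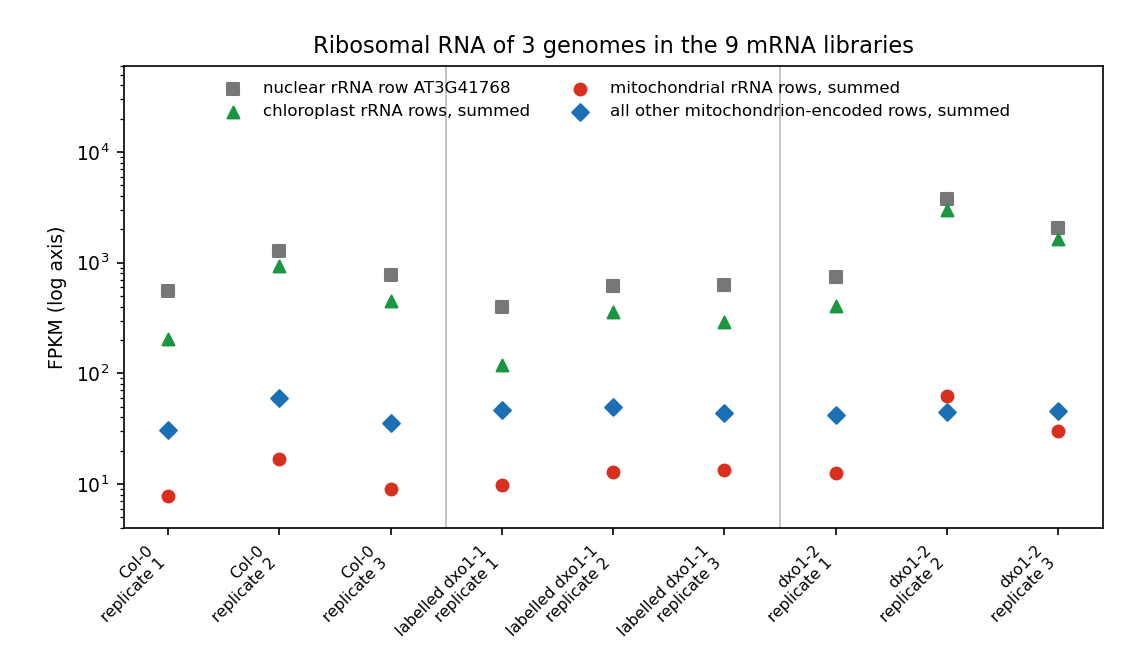
Ribosomal RNA of mitochondrion, chloroplast and nucleus in each mRNA library, in FPKM on a log axis, with the summed FPKM of all other mitochondrial rows as diamonds. Within Col-0 and within dxo1-2 the 3 sources put the libraries in the same order, with dxo1-2 replicate 2 highest of all 9 (62.93 FPKM mitochondrial, 3011.32 chloroplast and 3731.76 nuclear).

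Summed over all 146 rows, the mitochondrial genes gave 38.81, 77.28 and 44.39 FPKM in Col-0, 56.74, 62.07 and 57.0 in the dxo1-1-labelled libraries and 54.98, 107.83 and 75.38 in dxo1-2. The group means were 53.5 ± 20.8 (SD, n = 3), 58.6 ± 3.01 and 79.4 ± 26.7, and the Col-0 range took in all but dxo1-2 replicate 2. Without the ribosomal RNA rows the sums were 31.04, 60.45 and 35.41 FPKM, 46.85, 49.3 and 43.76, and 42.39, 44.9 and 45.56. All 6 libraries labelled as mutants then lay within the Col-0 range. In both sums Col-0 replicate 2 set the top of that range, at 77.28 and 60.45 FPKM. NAD4L, above 0 in that library alone, gave 17.34 FPKM of each, so both statements about the range rest on that row. Ribosomal RNA was 20.02% to 21.8% of the mitochondrial FPKM in Col-0 and 17.4% to 23.2% in the dxo1-1-labelled libraries, and 22.9%, 58.4% and 39.6% in dxo1-2.

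Nuclear genes that build the same complexes were called higher in most cases. All 18 listed nuclear subunits of complex I rose in the mean of both mutants (median log2 0.52), with median levels of 125 FPKM in Col-0, 182 in the dxo1-1-labelled libraries and 171 in dxo1-2. All 14 genes of complex III and cytochrome c rose (median log2 0.83), 7 of 8 of complex IV rose and 1 fell (median log2 0.58), and all 9 of complex V rose (median log2 0.57). The cytochrome c gene CYTC-2 rose from 38.5 to 146 and 115 FPKM (log2 1.72 in the mean of both mutants), and the complex IV subunit gene COX5B-2 from 62.0 to 158 and 142 FPKM (log2 1.26). Both are examples picked from the lists, with changes above the median of their list. Over all genes tested 52.4% of genes were called higher, with a median of log2 0.23. With centred libraries 10 rose and 2 fell in complex I, 11 and 0 in complex III and cytochrome c, 5 and 1 in complex IV, and 8 and 0 in complex V, beside 34.7% of all genes called higher and 44.7% lower on that scale. COX2, ATP9 and ORF25 thus stood beside nuclear partners that were also higher on the deposited scale, at far higher levels.

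Genes for mitochondrial RNA synthesis, splicing, editing and decay were counted in the same way: 12 of 15 rose and 2 fell in the mean of both mutants (median log2 0.58), and 10 rose and 3 fell with centred libraries, again beside 34.7% and 44.7% of all genes. The editing factor gene MORF8 rose from 80.3 to 133 FPKM in the dxo1-1-labelled libraries and 162 in dxo1-2 (log2 0.86). RPOT1 (AT1G68990), the mitochondrial RNA polymerase gene, rose from 3.69 to 5.28 and 5.57 FPKM (log2 0.45), and the exoribonuclease gene RNR1 fell from 16.9 to 11.8 and 12.2 FPKM (log2 -0.46). Beside these, the mitochondrial ribosomal RNAs were called higher than in Col-0 in dxo1-2 and not in the dxo1-1-labelled libraries, and the difference between the mutants did not pass (log2 1.44, adjusted p = 0.0589 for RRN26 and log2 0.92, adjusted p = 0.0509 for RRN18 in limma).

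Part of the mitochondrial genome has a nuclear copy, since chromosome 2 of Arabidopsis holds a large insertion of mitochondrial DNA. Among the FPKM values, 12 mitochondrial rows had a partner of identical length and identical values in all 9 libraries. For 10 of them the partner was on chromosome 2, and 6 had one within the mitochondrial genome. YMF19, RPSL2, CCB256 and ORF313 were among the former. ORF109, ORF101B, ORF106A, ORF106G, ORF152A and ORF152B were above 0 in 1 library alone, so their match rests on 1 value and the length. Small RNA reads of such pairs were equal in some cases and not in others. CCB256 and its partner AT2G07771 had 52 and 52 reads of 21-nt, 36 and 36 of 22-nt, and 36 and 36 of 24-nt. In 128 of 209 pairings of a library and a size class with reads (61.2%) both rows held the same number of reads. ORF106G and its partner AT2G07701 differed, with 1 and 15 reads of 22 nt and 8 and 19 of 24 nt. Some rows without an identical partner also had a related row on chromosome 2. AT2G07671, paired here with ATP9, had 2.44, 8.33 and 3.58 FPKM in Col-0 and 8.44, 5.64 and 6.46 in the dxo1-1-labelled libraries. In dxo1-2 AT2G07671 had 6.67, 13.58 and 7.31 FPKM. AT2G07698, paired with ATP1, held 1281, 1662 and 1378 reads of 21, 22 and 24 nt. COX3, ATP6-1 and RPS7 had rows of the same symbol there. The source genome of reads at all these rows cannot be told apart. Strands and overlapping genes cannot be told apart either, since strand use was not stated in the sources used.

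Small RNA reads were found at almost all mitochondrial rows. Of 122 rows, 113 had 21-nt reads, 114 had 22-nt reads and 120 had 24-nt reads in at least 1 of the 12 libraries, with 11545, 13024 and 16670 reads in all. The median row had 24.5, 29 and 52.5 reads over 12 libraries. A few rows held most of the normalized reads. The 3 highest carried 37.1% of the normalized reads at 21 nt, 42.1% at 22 nt and 31.2% at 24 nt. The 10 highest carried 63.6%, 60.1% and 52.0%. Mitochondrial reads numbered 1639 to 7440 per library, of 173804 to 1403794 reads assigned to genes in the 3 classes.

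The rows with many small RNA reads were much the same in the 3 size classes and were little related to the mRNA level. Across the 122 rows Spearman's rho was 0.83 between 21-nt and 22-nt reads, 0.77 between 21-nt and 24-nt reads and 0.85 between 22-nt and 24-nt reads, and 0.72, 0.68 and 0.75 per base of length. Reads rose with length (rho 0.48) and hardly with mean FPKM (rho 0.18, or 0.086 per length). These are descriptions across genes that share libraries. Of the rows listed at 0 FPKM in all 9 mRNA libraries, 41 were in the small RNA tables, 34 had reads in all 3 classes and 3 were among the 10 with the most reads. ATP9 and ATP1, both tested in mRNA, were also among those 10, with 1109 and 4104 reads.

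By role, complex V genes held 17.5% of the 21-nt, 18.5% of the 22-nt and 12.8% of the 24-nt mitochondrial reads, and complex I genes 15.3%, 12.7% and 11.1%. Complex IV genes held 14.7% of the 21-nt reads and 7.66% and 6.03% of the others. The unnamed open reading frames took a growing share with length, 42.6%, 51.1% and 57.0%, and the 37 named protein genes the rest.

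The row with the most reads in every class was ORF107A (ATMG00030), an open reading frame of 324 bases with no known product here, listed at 0 FPKM in all 9 mRNA libraries. It held 6163 reads in all, and 15.4%, 18.9% and 16.6% of the normalized mitochondrial reads of 21, 22 and 24 nt. Its 24-nt level was 276, 156 and 122 normalized reads in Col-0, 85.6, 82.7 and 39.0 in dxo1-2, 204, 296 and 256 in dcl4-2, and 204, 279 and 279 in dxo1-2dcl4-2. The dxo1-2 libraries were the 3 lowest of the 12, and dcl4-2 and dxo1-2dcl4-2 overlapped. The means were 185 ± 81.3 (SD, n = 3), 69.1 ± 26.1, 252 ± 46.0 and 254 ± 42.9.

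ORF107A 24-nt reads were lower in dxo1-2 than in Col-0 by log2 -1.41 (SE 0.275, adjusted p = 0.0151 in limma on log2 of normalized reads + 0.5). It was the 1 mitochondrial row called in that contrast over the 3 classes, where 0.106% of all 24-nt features were called lower and, in either direction, 0.938%, 0.282% and 0.13% at 21, 22 and 24 nt. DESeq2 on the recovered reads gave log2 -1.41 (adjusted p = 0.0098, with 0.176% of features called lower) and edgeR log2 -0.92 (adjusted p = 0.442). The DESeq2 shares are over all features with a p-value, and 107 of 120 members had no adjusted p in that contrast. The limma call was lost without Col-0 replicate 1 or 2, dxo1-2 replicate 3 or any 1 library of dcl4-2 or dxo1-2dcl4-2, and the adjusted p ranged from 0.0116 to 0.736 over the 12 libraries left out. In dxo1-2dcl4-2 it was higher than in dxo1-2 by log2 1.94 (adjusted p = 2.37e-05 in limma), against 1.11% of 24-nt features called higher. That call held with each library left out, in edgeR (log2 1.08, adjusted p = 0.0229, with 2.41% called higher) and in DESeq2 (log2 1.89, adjusted p = 3.42e-05, with 1.27% called higher). Whether the dxo1-2 effect differed between the dcl4-2 and the wild-type background was tested as an interaction, with log2 1.42 and adjusted p = 0.097 in limma.

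In the shorter classes dxo1-2 again had the lowest mean of the 4 lines. At 22 nt ORF107A had 229, 181 and 204 normalized reads in Col-0, 110, 114 and 87.8 in dxo1-2, 240, 183 and 199 in dcl4-2, and 175, 196 and 198 in dxo1-2dcl4-2. All dxo1-2 libraries lay below all others, and the difference from Col-0 was log2 -0.98 (adjusted p = 0.090 in limma). DESeq2 called it (log2 -0.98, adjusted p = 0.0315, with 0.143% of features called lower) and called the double mutant higher than dxo1-2 (log2 0.87, adjusted p = 0.0447, with 0.847% called higher), while edgeR called neither. At 21 nt it had 151, 154 and 99.5 in Col-0, 113, 104 and 62.0 in dxo1-2, 129, 156 and 177 in dcl4-2, and 88.8, 202 and 144 in dxo1-2dcl4-2. Here the groups overlapped (log2 -0.55, adjusted p = 0.753 in limma).

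**Figure D3:**
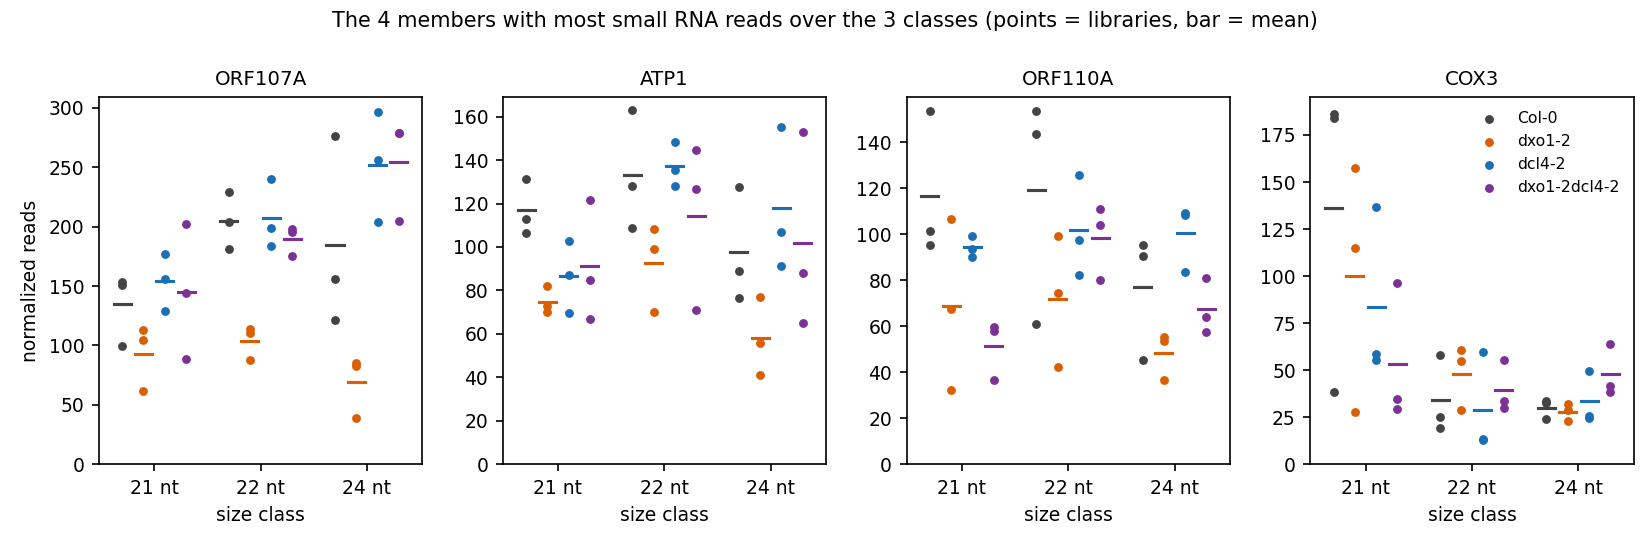
Normalized reads of ORF107A, ATP1, ORF110A and COX3 in each of the 12 small RNA libraries, by size class. ORF107A is lowest in the 3 dxo1-2 libraries at 22 and 24 nt (39.0 to 85.6 at 24 nt), while COX3 varies as much within a line as between lines (38.3 to 186 in Col-0 at 21 nt).

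ATP1 came next, with 4104 reads over a row of 1524 bases. At 21 nt it had 131, 113 and 106 normalized reads in Col-0, 82.003, 72.7 and 69.9 in dxo1-2, 69.9, 103 and 86.9 in dcl4-2, and 66.8, 122 and 84.8 in dxo1-2dcl4-2. The dxo1-2 libraries lay below Col-0, and the double mutant overlapped both. At 22 nt it had 108.6, 163 and 128 in Col-0, 108, 99.2 and 69.9 in dxo1-2, 128, 135 and 148 in dcl4-2 and 126, 71.1 and 145 in dxo1-2dcl4-2, and at 24 nt 128, 76.7 and 89.0, 77.1, 55.7 and 41.2, 91.2, 155 and 107, and 153, 64.9 and 88.0. No ATP1 difference passed in limma.

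ORF110A (ATMG00280, 333 bases) held 3487 reads. At 21 nt it had 153, 95.5 and 101 normalized reads in Col-0, 32.3, 67.4 and 107 in dxo1-2, 99.3, 90.3 and 93.4 in dcl4-2, and 59.7, 58.1 and 36.7 in dxo1-2dcl4-2. The double mutant lay below Col-0 and dcl4-2, which edgeR called (log2 -1.64, adjusted p = 0.0174 against Col-0, where edgeR called 12.2% of 21-nt features lower, and log2 -1.41, adjusted p = 0.0410 against dcl4-2, where it called 13.2% lower) and limma did not. The tests also differed in scale, since edgeR took library sizes from the 3 classes summed. At 22 nt the ORF110A levels were 143, 61.1 and 153, 42.1, 74.4 and 99.2, 82.4, 97.5 and 126, and 80.1, 104 and 111 in the same order, with overlap. At 24 nt they were 90.4, 45.5 and 95.2, 53.7, 36.8 and 55.2, 109.1, 108.5 and 83.5, and 57.6, 80.9 and 64.1.

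COX3 (2284 reads) and NAD6 (1490 reads) also stood among the 5 highest rows at 21 and 22 nt. COX3 21-nt levels were 38.3, 184 and 186 normalized reads in Col-0, 157, 115 and 27.6 in dxo1-2, 137, 58.8 and 55.4 in dcl4-2, and 34.8, 29.5 and 96.2 in dxo1-2dcl4-2. Libraries of 1 line differed several-fold, and the lines overlapped. NAD6, listed at 0 FPKM, had 35.6, 48.8 and 23.4 normalized 21-nt reads in Col-0, 21.8, 53.7 and 53.3 in dxo1-2, 18.6, 23.3 and 48.9 in dcl4-2, and 36.2, 54.6 and 72.1 in dxo1-2dcl4-2. At 24 nt the 4th and 5th places were held by MATR, with 26.7 to 90.5 normalized reads in all 12 libraries, and ORF205, with 16.5 to 58.5. Both had overlapping lines.

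Counted over the 3 classes, limma called 1 member feature in dxo1-2 against Col-0, 0 in dcl4-2 against Col-0, 5 in dxo1-2dcl4-2 against Col-0, 5 against dcl4-2 and 1 against dxo1-2, and 0 in the interaction. Tests ran on 74, 76 and 91 members of 7892, 8498 and 8473 features at 21, 22 and 24 nt. At 21 nt limma called 0 members in each of the 6 contrasts (2, 3, 12, 5, 6 and 1 had an unadjusted p under 0.05), edgeR called ORF110A in both contrasts of dxo1-2dcl4-2 with Col-0 and with dcl4-2, and DESeq2 called none (0). In DESeq2 63 to 80 of 113 members had no adjusted p at 21 nt and could not be called. Over all 21-nt features 0.938%, 0.862%, 3.41%, 3.86%, 4.59% and 1.56% were called by limma in the 6 contrasts. For dcl4-2 alone, 3, 4 and 3 members had an unadjusted p under 0.05 at 21, 22 and 24 nt, and edgeR and DESeq2 called 0. For the interaction these were 1, 5 and 5, again with 0 by edgeR and 0 by DESeq2. Against dxo1-2 the double mutant had 2.65% and 2.49% of features called at 22 and 24 nt. The background in dcl4-2 was 1.14% at 22 nt and 0.366% at 24 nt, and in the interaction 2.12% and 0.791%.

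The remaining calls concern rows with few reads, which are given as reads in replicates 1 to 3. At 22 nt in dxo1-2dcl4-2 against Col-0 (4.72% of features called), ORF25 had 0, 1 and 2 reads in Col-0 and 36, 8 and 35 in dxo1-2dcl4-2. The ratio after normalization was 18.6 (exact 95% counting interval 6.14 to 92.2; adjusted p = 0.0199 in limma), and the call was lost without Col-0 replicate 1 or 2 or dxo1-2dcl4-2 replicate 1 or 3 (adjusted p up to 0.118). Reads without molecular identifiers are not independent molecules, so such intervals cover counting error alone. ORF102B moved the other way, with 1, 19 and 13 reads in Col-0 and 0, 1 and 0 in dxo1-2dcl4-2, a ratio of 46.7 in favour of Col-0 (interval 7.81 to 1898; adjusted p = 0.0425 in limma, up to 0.198 and lost without any 1 of the dxo1-2 libraries, Col-0 replicate 2 or 3 or dxo1-2dcl4-2 replicate 1 or 3). ORF118 had 1, 10 and 15 reads in Col-0 and 0 in all of dcl4-2 and dxo1-2dcl4-2, so it was at least 12.3-fold lower in dxo1-2dcl4-2 at a floor of 3 reads over the group (adjusted p = 0.0494 in limma). That call was kept without Col-0 replicate 1, dcl4-2 replicate 2 or dxo1-2dcl4-2 replicate 3 and lost without any of the other 9 libraries (adjusted p up to 0.155). Of the 27 ORF118 reads of 22 nt over all libraries, 26 were in Col-0. The row was therefore near 0 in dxo1-2 too, and not only in the lines with dcl4-2.

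YMF19, whose row has an identical partner on chromosome 2, had 13, 28 and 22 reads of 22 nt in Col-0, 11, 10 and 27 in dcl4-2, and 0, 5 and 10 in dxo1-2dcl4-2. It was called lower than in Col-0 (log2 -3.01, SE 0.899, adjusted p = 0.0415 in limma) and than in dcl4-2 (log2 -2.89, adjusted p = 0.0483, with 5.55% of features called). Both calls remained only without dxo1-2dcl4-2 replicate 3 and were lost without each of the other 11 libraries (adjusted p up to 0.179 and 0.212). Against dcl4-2, ORF262 had 3, 0 and 0 reads in dcl4-2 and 50, 12 and 8 in dxo1-2dcl4-2, a ratio of 12.3 (interval 4.04 to 61.0; adjusted p = 0.0206 in limma), lost without dcl4-2 replicate 2 or 3 or dxo1-2dcl4-2 replicate 1 or 3 (adjusted p up to 0.115). In dxo1-2 the same row had 15, 12 and 48 reads. NAD7, a complex I subunit gene, had 6, 5 and 11 reads in dcl4-2 and 0, 2 and 0 in dxo1-2dcl4-2, a ratio of 20.9 in favour of dcl4-2 (interval 5.14 to 183; adjusted p = 0.0416 in limma). That call was kept without Col-0 replicate 1 or 2 or dxo1-2dcl4-2 replicate 2 and lost without each of the other 9 libraries (adjusted p up to 0.173).

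At 24 nt, ORF111A (ATMG00240) had 4, 6 and 11 reads in Col-0 and 0 in the 3 dxo1-2dcl4-2 libraries. It was at least 6.52-fold lower there at the floor of 3 reads (adjusted p = 0.0307 in limma, with 5.71% of features called), and the call was lost without any 1 library of Col-0 or dxo1-2 (adjusted p up to 0.124). Against dcl4-2 (4.57% called), ATP9 had 29, 14 and 29 reads in dcl4-2 and 16, 29 and 0 in dxo1-2dcl4-2 (log2 -2.94, adjusted p = 0.0402 in limma). Its value turned on replicate 3 of dxo1-2dcl4-2, and log2 ran from -4.13 to -1.23 over the libraries left out, the call being kept only without dxo1-2dcl4-2 replicate 2 (adjusted p up to 0.193). ORF136A (ATMG01300) had 1, 0 and 0 reads in dcl4-2 and 46, 6 and 11 in dxo1-2dcl4-2, a ratio of 34.4 (interval 5.96 to 1380; adjusted p = 0.0407 in limma), a call kept without Col-0 replicate 1 or dcl4-2 replicate 1 and lost without each of the other 10 libraries (adjusted p up to 0.217). Of the 151 ORF136A reads of 24 nt over all libraries, 63 were in dxo1-2dcl4-2 and 1 in dcl4-2. The rest were in Col-0 and dxo1-2, so the row was low in dcl4-2 and not high in dxo1-2dcl4-2 alone.

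Summed over the 122 rows, normalized 22-nt reads were 1020, 975 and 947 in Col-0, 790.0, 812 and 770 in dxo1-2, 951, 828 and 1039 in dcl4-2, and 982, 1036 and 1055 in dxo1-2dcl4-2. The dxo1-2 libraries were the 3 lowest. At 24 nt the sums were 1151, 998.7 and 1018 in Col-0, 901, 880.5 and 758 in dxo1-2, 1186, 1445 and 1249 in dcl4-2, and 1341, 1464 and 1353 in dxo1-2dcl4-2. Here dxo1-2 was again lowest, and all libraries with the dcl4-2 mutation lay above all Col-0 libraries. At 21 nt the sums were 931, 1003 and 912 in Col-0, 833, 863 and 728 in dxo1-2, 806, 840 and 792 in dcl4-2, and 774, 963 and 826 in dxo1-2dcl4-2, with the double mutant overlapping Col-0. The ratio of dxo1-2 to Col-0 was 0.852, 0.806 and 0.802 at 21, 22 and 24 nt. Without ORF107A it was 0.878, 0.885 and 0.892, so 1 row made much of the gap at 22 and 24 nt.

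The sums depend on the scale. The deposited normalization divides each library and class by a size factor taken over genes of that class, and mitochondrial reads as a share of all reads of a class gave another order. That share was 0.695% in Col-0, 0.599% in dxo1-2, 0.623% in dcl4-2 and 0.324% in dxo1-2dcl4-2 at 21 nt, and 1.21%, 1.19%, 0.898% and 0.212% at 22 nt. At 24 nt it was 1.09%, 0.987%, 1.25% and 0.851%. In dxo1-2dcl4-2 the reads of other genes were far more numerous, with 419461 to 795568 reads of 22 nt per library in the whole table, so a normalized level near that of Col-0 went with a small share. The chloroplast share was also smaller, at 2.03% of 22-nt reads in dxo1-2dcl4-2 and 18.7% in Col-0.

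**Figure D4:**
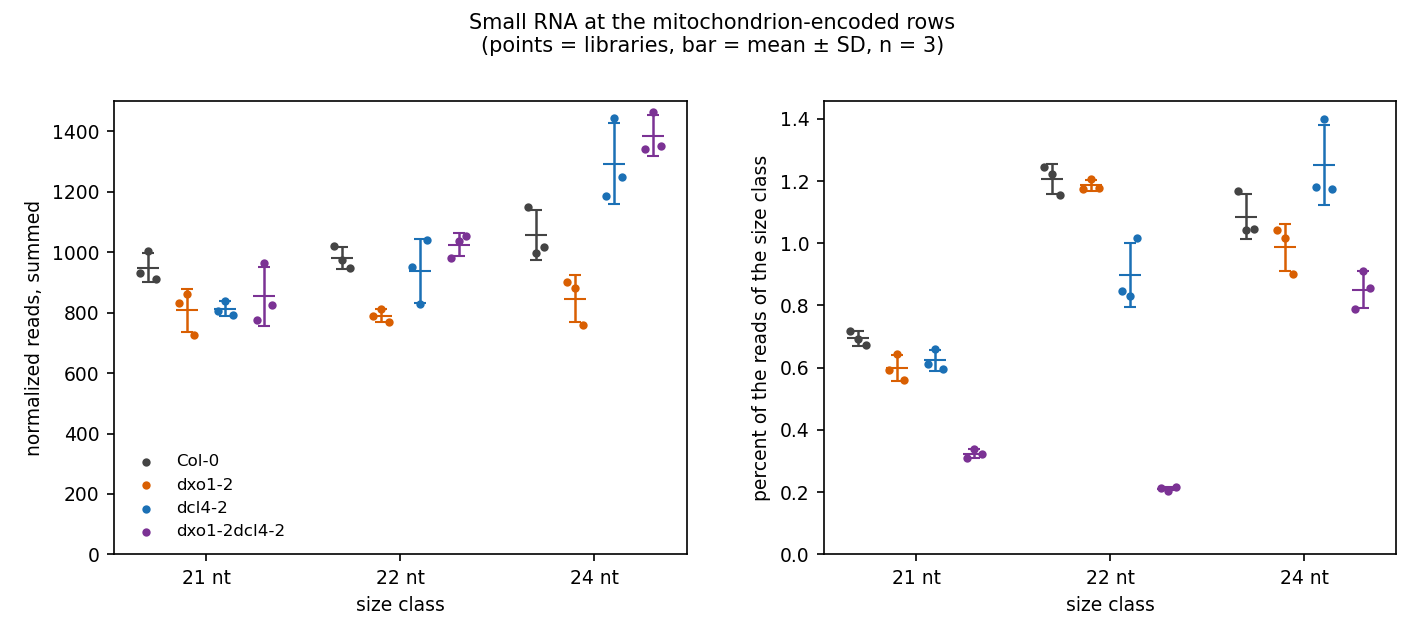
Summed small RNA reads of the 122 mitochondrial rows in each library, as normalized reads (left) and as a percentage of all reads of the size class (right). On the left dxo1-2 is lowest at 22 and 24 nt, and on the right dxo1-2dcl4-2 is lowest at 21 and 22 nt (0.324% and 0.212% on average).

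Mitochondrial reads were spread more evenly over the size classes than those of other genes. In Col-0 they were 34.2% of 21 nt, 29.5% of 22 nt and 36.3% of 24 nt, and reads of other nuclear genes 46.0%, 21.1% and 32.9%. In dxo1-2dcl4-2 the nuclear genes shifted to 24.99%, 59.2% and 15.8%, while mitochondrial reads were 25.4%, 35.3% and 39.3%. Chloroplast reads went from 44.9%, 34.1% and 20.99% to 61.3%, 22.7% and 16.0%. The 22-nt share thus rose less at mitochondrial than at nuclear rows on average, and at chloroplast rows it fell. In dxo1-2 mitochondrial reads were 27.2%, 29.95% and 42.9%, and in dcl4-2 31.4%, 31.9% and 36.7%. No test was made of these shares, which add up to the whole in each library.

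**Figure D5:**
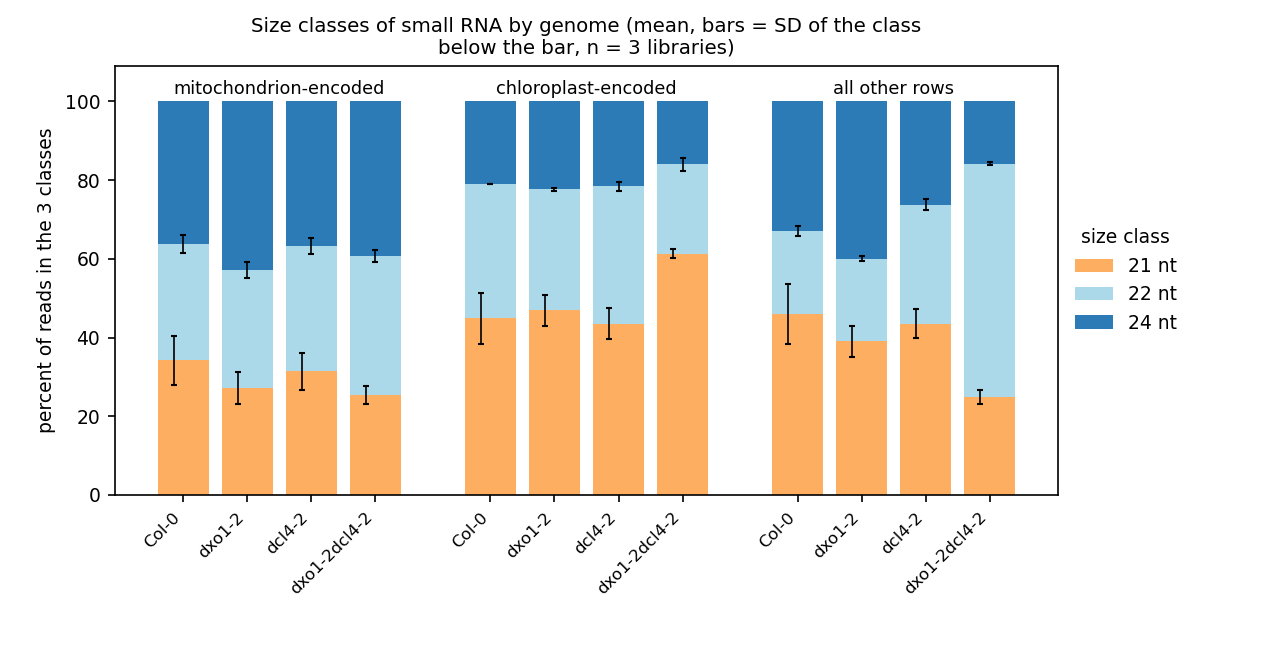
Share of reads of 21, 22 and 24 nt among mitochondrial, chloroplast and other rows, by line, as the mean of 3 libraries with the SD of the class below each bar. The 22-nt share of other rows is 21.1% in Col-0 and 59.2% in dxo1-2dcl4-2, while that of mitochondrial rows is 29.5% and 35.3%.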

How the data were processed

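Groups and replicate numbers came from the sample titles. The authors deposited mRNA values as FPKM per gene, with a length per row as another deposited value. Small RNA values were deposited as a signal, normalized reads per gene and size class. TopHat2 2.1.0, RSEM 2.1.30, Bowtie and the build TAIR10 are named in the submitters' processing notes; settings, strand use and the handling of multiply mapping reads are not stated there. In each small RNA column 100% of values were whole multiples of 1 step (tolerance 0.001), so whole reads were recovered. The sources used here give no depth behind the FPKM values.

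limma 3.58.1 in R 4.3.3, with a mean-variance trend and Benjamini-Hochberg adjustment over all features tested, was run in 1 fit over 9 libraries on log2(FPKM + 1), for genes whose mean reached 1. The same was done on log2(normalized reads + 0.5) over 12 libraries per class. Features passed at an adjusted p under 0.05. edgeR 4.0.16 and DESeq2 1.42.0 on recovered reads, other pseudocounts, no filter, centred and quantile-normalized libraries, a replicate block and leaving out libraries were alternatives. edgeR took library sizes and scaling factors from the 3 size classes summed. DESeq2 took size factors within each class, and limma used the deposited scale of each class. The limma, edgeR and DESeq2 fits were tested on simulated data. The members and gene lists were chosen with earlier results of these data known. By name, the text gives the 3 highest members of each role by mean FPKM, the 5 highest per small RNA class and those passing a contrast, plus genes said to be chosen later. Symbols are those of the FPKM table; 1 row, ATMG00090, has none. The context lists were fixed by gene identifier for counts only, and the genes named from them are examples picked without a rule set beforehand. No count of calls is adjusted over the members alone. Features that DESeq2 gave a p-value but no adjusted p could not be called, and they stay in the denominator of its shares. No mutant check of DCL4 was made in the small RNA lines.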

Additional observations from a re-analysis of the deposited data

Results flagged for a closer look

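Summed 22-nt reads of the mitochondrial rows stood out because the dxo1-2 mutation went with opposite directions in the wild-type and in the dcl4-2 background. The ratio of means was 0.806 for dxo1-2 over Col-0 and 1.09 for dxo1-2dcl4-2 over dcl4-2. Each dxo1-2 library lay below the Col-0 mean and each dxo1-2dcl4-2 library above the dcl4-2 mean. The dcl4-2 and dxo1-2dcl4-2 libraries overlapped, at 828 to 1039 and 982 to 1055. Summed 24-nt reads took the same directions, with ratios of 0.802 and 1.07, and dcl4-2 (1186 to 1445) again overlapped dxo1-2dcl4-2 (1341 to 1464). The opposite directions hold for the deposited normalized reads alone: as a share of all reads of the class the ratios were 0.982 and 0.236 at 22 nt, and 0.910 and 0.680 at 24 nt, below 1 in both backgrounds. The difference was not tested for either sum.

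NAD7 22-nt reads also took opposite directions, with a ratio of 1.197 for dxo1-2 over Col-0 and 0.0488 for dxo1-2dcl4-2 over dcl4-2. The first direction rests on single libraries, since the ratio was 0.798 without Col-0 replicate 1, 0.949 without Col-0 replicate 3 and 5.00302 without Col-0 replicate 2. The interaction for this gene in limma had log2 -5.19 and adjusted p = 0.103, so it did not pass. It rests on 0, 23 and 3 reads in Col-0, 14, 7 and 27 in dxo1-2, 6, 5 and 11 in dcl4-2, and 0, 2 and 0 in dxo1-2dcl4-2.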

How the results depend on the processing

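Member calls in mRNA were 3 for the libraries labelled dxo1-1, 5 for dxo1-2, 3 for the mean of both and 0 between mutants. Without a filter on low values they were 8, 7, 10 and 1. ORF153A, ORF315, NAD5C and ORF313 were then lower in the dxo1-1-labelled libraries and in the mean, and ORF153A in dxo1-2. The other calls in these 3 contrasts were higher. RPSL2 was lower in dxo1-2 than in the dxo1-1-labelled libraries. Some of these rows lie near 0, such as ORF153A at 0.37, 0.57 and 0 FPKM in Col-0 and 0 in every mutant library. Centring gave 2 in dxo1-2, and quantile normalization 3 in dxo1-2 and 1 in the mean. Of all genes 32.3% were called higher and 42.5% lower in dxo1-2 under centring, and 33.4% and 40.6% under quantile normalization. In the mean quantile normalization called 35.3% of all genes higher and 43.2% lower. Without the 3 libraries high in nuclear ribosomal RNA they were 5 and 2 for the single mutants. Leaving out 1 library gave 2 to 5, 1 to 6, 3 to 6 and 0 to 2. Shares of all genes called are not given for the other settings, so those counts are not read as a result about the members. ORF25 changed sign under centring, to log2 -0.0328 in dxo1-2 and -0.0081 in the mean, since centring lowered the median gene. Other causes were not tested.

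Small RNA calls were 1, 0, 5, 5, 1 and 0 in the 6 contrasts. For dxo1-2 edgeR gave 0 and DESeq2 2. For dxo1-2dcl4-2 against Col-0 no filter gave 1 and edgeR 1; against dcl4-2 no filter gave 1, edgeR 3 and DESeq2 2; against dxo1-2 edgeR gave 3 and DESeq2 6. Leaving out 1 library gave 0 to 1, 0 to 1, 0 to 6, 1 to 5, 1 to 3 and 0 to 1. Shares of all features called under these settings are not given here, so these counts are not read as a result about the members.

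Over all tested features same-numbered samples did not deviate together (correlations of at most 0.0945 in mRNA and 0.0234 in small RNA), so the numbers did not pair the samples there. Ribosomal RNA did share an order. Replicate 1 had the lowest mitochondrial, chloroplast and nuclear ribosomal RNA in each mRNA group. For RRN26 the block lowered the SE from 0.545 to 0.330. With a replicate block mRNA calls were 5, 5, 7 and 2, the last being RRN26 (adjusted p = 0.0086 in limma) and RRN18 (adjusted p = 0.0121), and small RNA calls 1, 0, 3, 5, 1 and 0. Shares of all features called with the block are not given.

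Summed FPKM was 1.096 times Col-0 in the libraries labelled dxo1-1 and 1.48 times in dxo1-2, or 0.963 to 1.41 and 1.22 to 1.91 with 1 library left out, and 1.04 relative to rows outside the organelles in the former. As a share of all reads of a library, small RNA sums over Col-0 were 0.749 in dxo1-2 and 0.273 in dxo1-2dcl4-2 at 21 nt, 0.954 and 0.440 at 22 nt, and 1.12 and 0.399 at 24 nt, with 0.944 in dcl4-2. With 1 library left out the normalized ratios for dxo1-2, dcl4-2 and dxo1-2dcl4-2 were 0.823 to 0.894, 0.840 to 0.882 and 0.844 to 0.943 at 21 nt, 0.793 to 0.823, 0.907 to 1.01 and 1.03 to 1.07 at 22 nt, and 0.776 to 0.844, 1.15 to 1.28 and 1.28 to 1.37 at 24 nt. Leaving out ribosomal and transfer RNA rows changes nothing in the small RNA sums, as none is in those tables. Most members lie near 0 FPKM or hold few reads, and 1 read or fragment can move their values.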
